A study of Rattus norvegicus with 3 samples.

Results

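The neurotrophins, ciliary neurotrophic factor (CNTF) with its relative LIF, and FGF2 are the classical survival factors of the retina, and 10 of their genes were followed in P4 rat retinas after an intravitreal (IVIT) injection of STZ. The genes were Bdnf, Ntrk2, Ntrk3, Ngfr, Cntf, Cntfr, Lif, Il6st, Fgf2 and Fgfr1, chosen by name with earlier results of these data known. All 10 were found among the 18425 genes of the deposited table. The rats were wild-type Sprague Dawley pups. At P1, 1 µl of citrate buffer (pH 4.5), saline or STZ (10 µg, prepared in citrate buffer) was injected into the vitreous, and retinas were dissected at P4, when retinal progenitor cells (RPCs) are still dividing. STZ, a nitrosourea coupled to glucosamine, damages DNA by alkylation. There was 1 RNA library per condition, and the number of pups per library is not given in the sources used here. For its IVIT experiments the study describes STZ in right eyes, with citrate buffer given to the fellow left eyes. Whether the buffer and STZ libraries came from such paired eyes is not given. The saline library shares neither the citrate nor the low pH with the STZ library, so citrate buffer is the matched control.

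In this system, BDNF signals through the receptor tyrosine kinase TrkB (Ntrk2), NT-3 through TrkC (Ntrk3), and every neurotrophin can also bind the p75 receptor (Ngfr), which can promote survival or death depending on the cell. CNTF and LIF belong to the interleukin-6 family. Both use the shared subunits gp130 (Il6st) and the LIF receptor (Lifr), and CNTF needs the additional subunit Cntfr. The complex activates JAK kinases and STAT3, and in the injured retina LIF is known as a signal that reaches Müller glia and protects photoreceptors. FGF2 activates FGF receptors, of which Fgfr1 is one, and passes its signal through Ras and ERK.

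RefSeq (GRCr8) windows of 250 bases before and 50 bases after a transcription start were on hand for 4 of the 10 genes, Bdnf with 6 starts and Cntf, Il6st and Fgf2 with 1 each. The other 6 were Ntrk2, Ntrk3, Ngfr, Cntfr, Lif and Fgfr1. The windows were searched on both strands for a STAT motif (TTCNNNGAA), an AP-1 motif (TGANTCA) and a cyclic AMP response element (TGACGTCA), and no window held more than 1 match. Of 33469 RefSeq windows of this length, 8.87% hold the first, 7.33% the second and 1.83% the third. Below are the window of Cntf, the only one of the 4 genes that passed a fold threshold, and 2 windows of Bdnf, which show that its starts differ while the read counts add them up. Capitals mark the motif match. The Cntf window is at chr1:219314486-219314785 on the minus strand and holds AP-1 letters 72 bases before the start. The first Bdnf window, at chr3:116619383-116619682 on the plus strand, holds STAT letters 135 bases before its start, and the third, at chr3:116621721-116622020 on the plus strand, holds AP-1 letters 152 bases before its start. The remaining 4 Bdnf windows and that of Il6st hold none of the 3 motifs, and the Fgf2 window holds STAT letters. A match describes the letters of the window only.
Cntf: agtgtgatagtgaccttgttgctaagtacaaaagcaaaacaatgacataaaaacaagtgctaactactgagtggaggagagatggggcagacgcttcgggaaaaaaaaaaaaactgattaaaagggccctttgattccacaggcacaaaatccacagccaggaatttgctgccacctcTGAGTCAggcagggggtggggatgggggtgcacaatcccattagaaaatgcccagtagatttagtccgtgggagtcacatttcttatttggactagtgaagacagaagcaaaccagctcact
Bdnf start 1: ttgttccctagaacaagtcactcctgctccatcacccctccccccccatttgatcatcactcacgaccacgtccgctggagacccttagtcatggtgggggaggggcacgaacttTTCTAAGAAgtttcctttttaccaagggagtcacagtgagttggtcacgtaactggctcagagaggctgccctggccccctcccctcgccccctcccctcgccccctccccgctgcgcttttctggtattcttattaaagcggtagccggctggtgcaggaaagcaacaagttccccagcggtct
Bdnf start 3: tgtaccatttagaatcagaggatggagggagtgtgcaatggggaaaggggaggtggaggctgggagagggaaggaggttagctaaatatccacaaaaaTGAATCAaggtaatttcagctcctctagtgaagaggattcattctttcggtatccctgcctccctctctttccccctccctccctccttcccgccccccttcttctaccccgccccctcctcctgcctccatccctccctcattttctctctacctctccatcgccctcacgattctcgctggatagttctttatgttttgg

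Library totals of estimated reads were 21992702 (buffer), 21977843 (saline) and 22031249 (STZ). The 12 retina-defining markers, among them Rax, Pax6 and Crx, were all detected. Their FPKM (fragments divided by transcript length and by library depth) summed to 1813, 1791 and 1817 for buffer, saline and STZ. These near-equal sums hide opposite differences, since 8 of the 12 had their lowest share in STZ and 4 their highest. Sums for markers of other tissues were more uneven. Lens markers summed to 19.3 FPKM in buffer, 55.7 in saline and 306 in STZ, and 15 of 17 had their highest share in STZ. Markers of pigment, ciliary and iris epithelium summed to 102, 249 and 98.9 FPKM, and 9 of 12 had their highest share in saline. Microglia markers summed to 61.7, 79.2 and 198 FPKM, with all 12 highest in STZ. Because the libraries are bulk RNA, fewer cells of a type and less RNA per cell cannot be told apart.

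A gene's fold change was (FPKM + 1)/(FPKM + 1), called higher where its log2 was above 0.62 and lower where it was below -0.62, the fold thresholds in the methods of the study. The added 1 pulls the fold of a weakly expressed gene toward 1. Beside it stands the share ratio, the ratio of the gene's shares of the library reads, with an exact Clopper-Pearson 95% interval that covers counting error only. With 1 library per condition there is no test and no p-value, and a difference between libraries has no replicate check. Both STZ comparisons share the STZ library. In STZ against buffer, 1 of the 10 genes (Lif) passed the upper threshold and 0 the lower one, where 2.25% of all genes were higher, 1.04% lower and 3.29% either. Against saline, 1 was higher (Lif) and 1 lower (Cntf), where 2.04% and 1.75% of all genes passed, 3.78% in all. In saline against buffer, 0 of 10 passed in either direction, where 1% of all genes were higher and 0.429% lower, 1.43% in all. The median log2 fold of the 9 genes with a mean of at least 10 reads was 0.08 in STZ against buffer and 0.07 against saline, beside 0.03 and 0.01 over the 14886 such genes of the table. Of the 9 genes, 5 had a fold above 1 and 4 below 1 in either comparison.

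Smaller differences were read from the share ratio. Against buffer its interval lay above 1 for 4 of the 10 genes and below 1 for 3, where 22.2% and 15.8% of all genes did so, 38% in all. Against saline the numbers were also 4 and 3, beside 22.5% and 19.8%, 42.2% in all. In saline against buffer they were 2 and 0, beside 13.6% and 10%, 23.6% in all. The interval excluded 1 on the same side against both controls for 7 of the 10 genes, with Lif, Ntrk2, Ntrk3 and Il6st higher in STZ and Ngfr, Cntf and Fgfr1 lower. The share of genes doing so was taken only at a mean of at least 100 reads, so the 7 of 10 has no matching share. Among the 7 genes with a mean of at least 100 reads the number was 6, where 39% of the 11804 such genes of the table did so. At this depth the interval is a weak criterion. Among genes with at least 100 reads it excluded 1 for 50.2% in STZ against buffer (28.4% above and 21.8% below) and for 56.2% in STZ against saline (29.9% and 26.3%). Between the control libraries it already did so for 31.3% (17.1% and 14.3%).

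By level per length, the receptors stood above Bdnf, Fgf2 and Lif, while Cntf exceeded both Trk receptor genes in saline. In buffer, Cntfr had the highest FPKM of the 10 at 36.8, followed by Ngfr at 29.8. Fgfr1 and Il6st, at 19.45 and 19.44 FPKM, did not differ beyond counting error, nor did Cntf at 8.38 and Ntrk2 at 7.99. Ntrk3 had 4.47 FPKM. Bdnf at 0.50, Fgf2 at 0.17 and Lif at 0.13 were the lowest, and the counting interval of Fgf2 overlapped those of Bdnf and Lif. In STZ the order was Cntfr at 34.5, Il6st at 22.2, Ngfr at 19.8, Fgfr1 at 14.9, Ntrk2 at 10.7, Ntrk3 at 6.23, Cntf at 5.89, Lif at 0.97, Bdnf at 0.59 and Fgf2 at 0.12. The neighbours Ntrk3 and Cntf overlapped there, as did Lif and Bdnf, and Bdnf and Fgf2 barely did not: the interval of Bdnf began at 0.438 and that of Fgf2 ended at 0.433. Ngfr had the second highest level in both controls and the third in STZ, and Lif moved from the lowest level to above Bdnf.

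**Figure D1:**
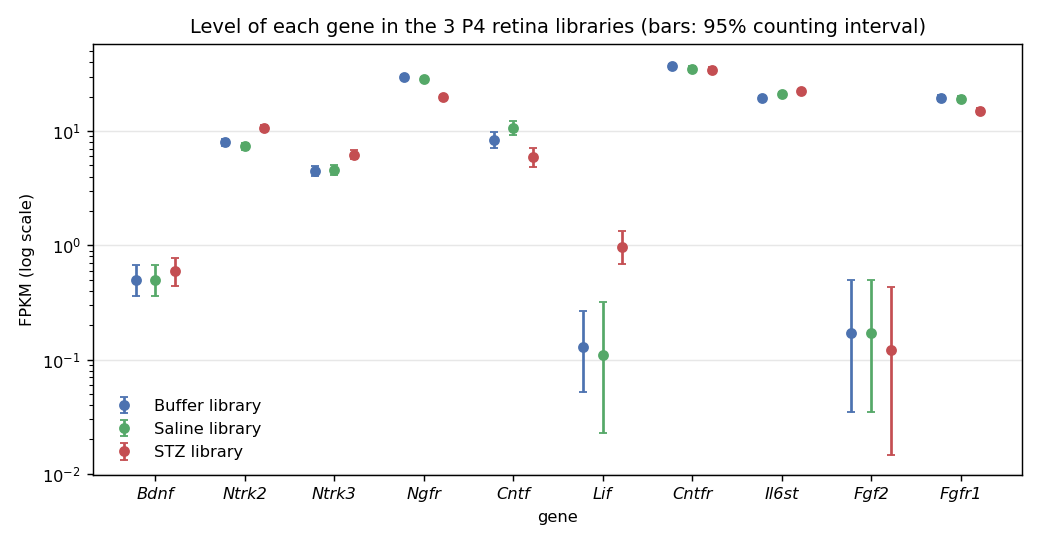
FPKM of the 10 genes (x axis) on a log scale (y axis) in the buffer, saline and STZ libraries, with 95% counting intervals and no replicates. Lif stands at 0.97 FPKM in STZ against 0.13 and 0.11 in the controls, and Ngfr at 19.8 against 29.8 and 28.6.

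Of the ligands, Lif showed the largest difference. It had 7 reads in buffer, 3 in saline and 39 in STZ, or 0.13, 0.11 and 0.97 FPKM. Both controls were near the limit of detection and the STZ library was clearly above them. The fold was 1.74 against buffer and 1.77 against saline. For Lif the FPKM and counts imply unequal transcript lengths, 2.45 kb in buffer, 1.24 kb in saline and 1.82 kb in STZ. Length does not enter the share ratio. The share ratio was 5.56 against buffer (2.46 to 14.7), and 13.0 against saline (4.12 to 65.6), where the denominator is only 3 reads. Saline and buffer did not differ beyond counting error, with a ratio of 0.429 (0.0716 to 1.88). LIF is a cytokine that damaged tissue can release, and it was measured here beside a library with more microglial and lens RNA. All 12 microglia markers and 15 of 17 lens markers were highest in STZ, with sums given above, of which only Cryba2 and Crybb2 were at 0 and only in buffer. Their part in the Lif reads was not tested.

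Cntf encodes a cytokine made by glia in the eye. It had 159 reads in buffer, 203 in saline and 112 in STZ, or 8.38, 10.7 and 5.89 FPKM, so STZ was the lowest of the 3 libraries and saline the highest. Its fold was 0.735 against buffer, short of the threshold, and 0.588 against saline, past it. The share ratios were 0.703 (0.547 to 0.901) and 0.550 (0.433 to 0.697). The controls themselves differed, with a share ratio of 1.28 in saline against buffer (1.03 to 1.58), and against the mean of both controls 0 of the 10 genes passed the lower threshold. The 9 astrocyte markers summed to 37.4, 50.8 and 33.4 FPKM in buffer, saline and STZ. Of the 9, 7 were highest in saline and 6 lowest in STZ, and Aldh1l1 was at 0 in buffer and STZ. Much of these sums came from Slc1a2, with 19.54, 19.53 and 21.73 FPKM, and Gja1, with 2.65, 13.73 and 3.34. The 8 Schwann and neural crest markers summed to 55.3, 58.0 and 46.7 FPKM, with Foxd3 at 0 in buffer and STZ. The part of these cells in the Cntf difference was not tested. Within a library, Cntf exceeded Lif 64.5-fold in buffer on the FPKM scale (30.6 to 163), 97.5-fold in saline (32.9 to 476) and 6.07-fold in STZ (4.18 to 8.98). These ratios divide by few Lif reads in the controls. They also carry its unequal implied lengths of 2.45, 1.24 and 1.82 kb, which the intervals do not cover.

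Bdnf, the ligand of TrkB, had 42 reads in buffer, 41 in saline and 50 in STZ, or 0.50, 0.50 and 0.59 FPKM. The libraries lay close together, and its share ratio in STZ was 1.19 against buffer (0.773 to 1.84) and 1.22 against saline (0.789 to 1.89). A change within these bounds was not detectable at this depth. Fgf2 had 3, 3 and 2 reads, too few for a ratio, so no statement on FGF2 mRNA can be drawn from these libraries.

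Of the neurotrophin receptors, Ntrk2 and Ntrk3 were higher in STZ and Ngfr was lower. Ntrk2 had 848 reads in buffer, 790 in saline and 1133 in STZ, with FPKM of 7.99, 7.40 and 10.7. The controls lay together and STZ above both. Its fold was 1.30 against buffer and 1.39 against saline, short of the threshold, and its share ratios were 1.33 (1.22 to 1.46) and 1.43 (1.31 to 1.57). The saline to buffer ratio was 0.932 (0.845 to 1.03). Reads were counted per gene, so full-length TrkB, which carries the kinase, and truncated TrkB, which lacks it, are not separated. Ntrk3 had 332, 337 and 471 reads and FPKM of 4.47, 4.57 and 6.23, again with STZ above the 2 controls. Its folds were 1.32 and 1.30, with share ratios of 1.42 (1.23 to 1.63) and 1.39 (1.21 to 1.61). The 10 markers of retinal ganglion cells, which carry Trk receptors, summed to 356, 326 and 393 FPKM and were all highest in STZ. Their part was not tested.

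Ngfr had 1987 reads in buffer, 1906 in saline and 1323 in STZ, or 29.8, 28.6 and 19.8 FPKM. The controls differed by less than counting error, with a share ratio of 0.960 (0.901 to 1.02), and STZ was below both. The fold of 0.675 against buffer was just short of the threshold of 0.65 (-0.62 on the log2 scale), and that against saline was 0.702. The share ratios were 0.665 (0.620 to 0.713) and 0.692 (0.645 to 0.743). Across the scalings and pseudocounts tried against buffer, and against the mean of both controls, the fold lay between 0.657 and 0.688. It did not cross the threshold. The ratio of Ngfr to Ntrk2 within a library, on the FPKM scale, was 3.73 in buffer (3.44 to 4.05), 3.87 in saline (3.56 to 4.21) and 1.85 in STZ (1.71 to 2.01). The 9 pericyte and mural markers, whose cells can carry p75, summed to 19.1, 17.8 and 12.6 FPKM with 7 lowest in STZ. The 9 Müller glia markers summed to 1255, 1310 and 1209 FPKM with 6 lowest in STZ, and no marker of either list was at 0. The part of these cells was not tested.

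The receptor subunits for CNTF and LIF changed little. Cntfr, the subunit that gives CNTF its specificity, had 1194, 1150 and 1171 reads and 36.8, 35.2 and 34.5 FPKM, and the 3 libraries could not be told apart by their shares. The share ratio in STZ was 0.979 against buffer (0.902 to 1.06) and 1.02 against saline (0.936 to 1.10). Il6st, the signal-transducing subunit gp130, had 3196, 3460 and 3661 reads and 19.4, 21.1 and 22.2 FPKM. It was highest in STZ, but saline also exceeded buffer, with a share ratio of 1.08 (1.03 to 1.14), beside 1.06 (1.01 to 1.11) for STZ against saline. Against buffer the STZ ratio was 1.14 (1.09 to 1.20). Lifr, the other signaling subunit, had 619, 617 and 531 reads, with STZ ratios of 0.856 (0.761 to 0.963) and 0.859 (0.763 to 0.966). On the FPKM scale, Il6st exceeded Lifr 3.29-fold in buffer (3.02 to 3.60), 3.77-fold in saline (3.46 to 4.11) and 4.72-fold in STZ (4.31 to 5.18). The transcript length implied for Lifr was 4.77 kb in buffer, 5.02 kb in saline and 5.12 kb in STZ. That of Il6st stayed at 7.48, 7.47 and 7.48 kb. Part of the rise in this ratio therefore comes from the length of Lifr, which the intervals do not cover.

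Fgfr1, an FGF receptor of progenitors and glia, had 1236 reads in buffer, 1229 in saline and 1000 in STZ, or 19.4, 19.1 and 14.9 FPKM. The controls nearly coincided, with a share ratio of 0.995 (0.919 to 1.08), and STZ was below both. The folds of 0.779 and 0.792 did not reach the threshold. The share ratios were 0.808 (0.742 to 0.879) against buffer and 0.812 (0.746 to 0.883) against saline. Fgfr1 held 75.0% of the summed FPKM of the 4 FGF receptor genes in buffer, 68.2% in saline and 75.3% in STZ.

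**Figure D2:**
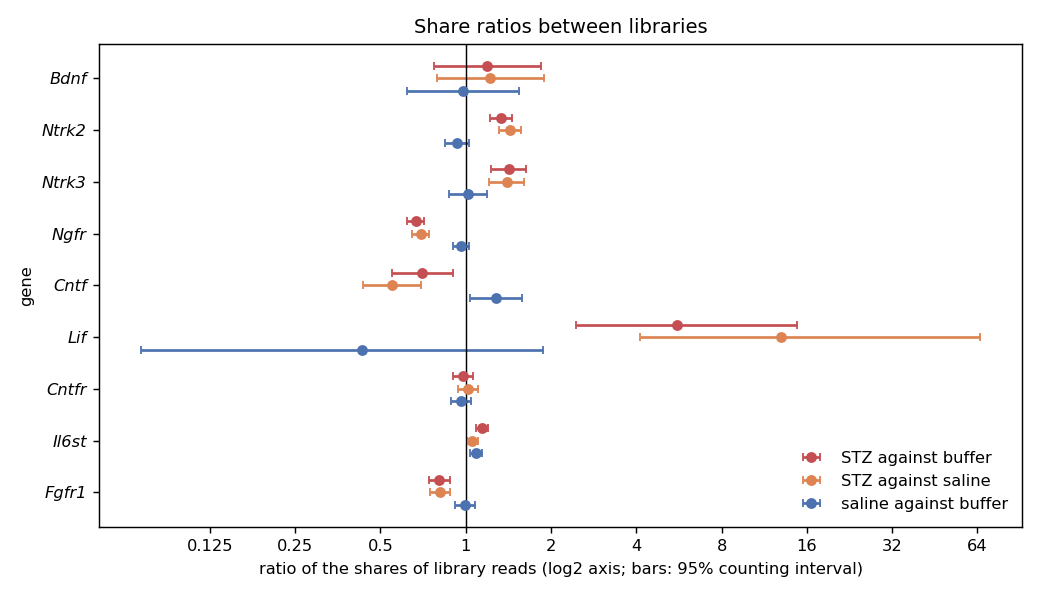
Share ratios (x axis, log2 scale) of 9 genes (y axis) for STZ relative to each control and for the controls relative to each other, with 95% counting intervals. Fgf2 is left out for too few reads. Ntrk2, Ntrk3, Ngfr and Fgfr1 keep the STZ ratios on 1 side of 1 with saline against buffer at 1, while Cntf and Il6st also differ between the controls.

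The other genes of these pathways were read from 4 lists with 113 genes, of which 109 were in the table. Of the 109, 6 were higher and 1 lower in STZ against buffer, 4 higher and 4 lower in STZ against saline, and 2 higher and 0 lower in saline against buffer. As shares these are 5.50% and 0.917%, beside 2.25% and 1.04% of all genes, then 3.67% and 3.67%, beside 2.04% and 1.75%, and 1.83% and 0%, beside 1% and 0.429%. Past the same threshold against both controls were 4 of the 109 genes (3.67%), all higher and among them Egr1, Fos and Edn2. Of all genes, 1.39% were higher and 0.63% lower against both. The lists were chosen with earlier results of these data known, so these shares are no test of the lists.

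Of the 20 neurotrophin genes, 0 passed in any of the 3 comparisons. The median log2 fold of the 17 with at least 10 reads was 0.01 in STZ against buffer and -0.03 against saline. Among the ligands, in the order buffer, saline, STZ, Ntf4 had 0, 2 and 0 reads, too few for a ratio. Ntf3, which encodes NT-3, had 22, 25 and 19 reads and a share ratio of 0.862 against buffer (0.441 to 1.67). Sort1, the sortilin receptor that binds proneurotrophins together with p75, had 7333, 6916 and 6917 reads and a ratio of 0.942 (0.911 to 0.973) against buffer and 0.998 (0.965 to 1.03) against saline. Maged1, whose product binds the p75 receptor, had the highest level of the list with 196, 194 and 204 FPKM.

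In the list of CNTF, LIF and gp130 signaling, 3 of 25 genes were higher in STZ against buffer, 2 against saline, and 0 were lower. Between the controls 0 passed. The median log2 fold of its 23 genes with at least 10 reads was 0.05 against buffer and -0.02 against saline, close to the 0.03 and 0.01 over all genes. Stat3, the main transcription factor downstream of gp130, had 1730 reads in buffer, 1983 in saline and 2731 in STZ. STZ was the highest, and saline stood above buffer. Its fold was 1.55 against buffer, barely past the threshold, and 1.36 against saline, short of it, with share ratios of 1.58 (1.48 to 1.67) and 1.37 (1.30 to 1.46), beside 1.15 (1.07 to 1.22) between the controls. Edn2, an endothelin that photoreceptors make when damaged, had 4, 9 and 28 reads and folds of 1.79 and 1.58. Its share ratios were wide, 6.99 against buffer (2.44 to 27.4) and 3.10 against saline (1.42 to 7.48). Socs3, the feedback inhibitor that STAT3 induces, did not share this difference. It had 149, 183 and 157 reads and share ratios of 1.05 (0.835 to 1.33) and 0.856 (0.687 to 1.07). Jak1, the kinase bound to gp130, had folds of 1.09 and 1.11, and Pias3, the most abundant gene of the list, 1.00 and 0.971.

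**Figure D3:**
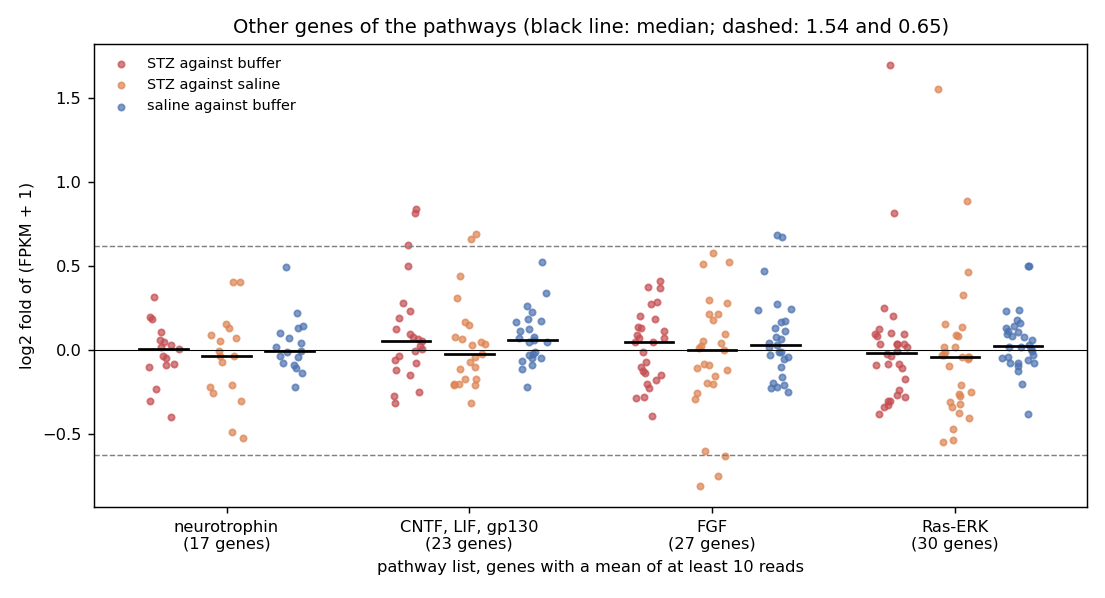
Log2 fold of (FPKM + 1) (y axis) for the genes of the 4 pathway lists with a mean of at least 10 reads (x axis), each point 1 gene, with the median as a black line and the thresholds 0.62 and -0.62 dashed. The medians lie between -0.04 and 0.06, and the highest points are Egr1 in both STZ comparisons.

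In the FGF list, 34 of 38 genes were in the table. Of these, 1 was higher and 1 lower in STZ against buffer, 0 higher and 4 lower in STZ against saline, and 2 higher and 0 lower in saline against buffer. The medians over 27 genes were 0.05, 0 and 0.03. The receptor gene Fgfr2 had 62, 154 and 50 reads and Fgf1, a ligand of all FGF receptors, 14, 53 and 19, so both were highest in saline. Their folds in saline against buffer were 1.61 and 1.59, with share ratios of 2.49 (1.84 to 3.39) and 3.79 (2.07 to 7.39). The transcript length implied for Fgf1 was 3.98 kb in buffer, 2.84 kb in saline and 3.92 kb in STZ. The shorter length in saline raises the fold of Fgf1, which is close to the threshold, but does not enter its share ratio. Saline was also the library with 249 FPKM of pigment, ciliary and iris epithelium markers, against 102 in buffer and 98.9 in STZ, with Rpe65 at 0 in buffer. Their part was not tested. STZ and buffer did not differ in Fgfr2 beyond counting error, at 0.805 (0.543 to 1.19). Fgfr3 had 43, 60 and 41 reads and an STZ ratio of 0.682 (0.447 to 1.03) against saline. The remaining genes past a threshold were singled out after their values were seen. Fgfr4 had 338, 410 and 243 reads and folds of 0.762 against buffer and 0.646 against saline. Fgf19, the rat gene listed under its older name Fgf15, had 147, 207 and 120 reads and folds of 0.825 and 0.594. Fgf3 (8, 14 and 4 reads), Fgf8 (10, 5 and 1) and Fgf22 (2, 6 and 8) had few reads. Ndst1, a heparan sulfate sulfotransferase, had the highest level, with 39.09, 39.55 and 41.21 FPKM.

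In the list of Ras-ERK transducers and feedback genes, 2 of 30 were higher in STZ against each control and 0 were lower, and 0 passed between the controls. The median log2 fold was -0.01 against buffer and -0.04 against saline. Egr1, an immediate early gene that ERK induces, had 32 reads in buffer, 38 in saline and 168 in STZ, with the controls close together and STZ far above. Its folds were 3.25 and 2.94, and its share ratios 5.24 (3.57 to 7.91) and 4.41 (3.09 to 6.45). Fos had 84, 78 and 171 reads, folds of 1.76 and 1.85 and share ratios of 2.03 (1.56 to 2.67) and 2.19 (1.66 to 2.90). Dusp6, an ERK phosphatase, had 315, 350 and 326 reads and ratios of 1.03 (0.882 to 1.21) and 0.929 (0.797 to 1.08). Etv5, a transcription factor downstream of FGF, had ratios of 0.925 (0.860 to 0.995) and 0.980 (0.910 to 1.06). Spry2, a feedback inhibitor, had 730, 780 and 646 reads and was lower in STZ, with ratios of 0.883 (0.793 to 0.983) and 0.826 (0.743 to 0.918). Over the list, the counting interval lay above 1 for 4 genes and below 1 for 10 in STZ against buffer, and for 6 and 11 against saline, of 30 genes. Over all genes the shares above and below 1 were 22.2% and 15.8% against buffer and 22.5% and 19.8% against saline. Most genes of the list had a mean of at least 100 reads. Among all genes at that depth the shares were 28.4% and 21.8% against buffer and 29.9% and 26.3% against saline. Plcg1, with 97.6, 94.9 and 92.3 FPKM, had the highest mean level over the 3 libraries, though Map2k2 exceeded it in STZ with 99.5 FPKM.

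By the change of log2(FPKM + 1) from buffer to saline and to STZ, Lif, the only 1 of the 10 genes past the threshold against both controls, was nearest to Fos (distance 0.05) among 97 pathway genes. The measure rests on 3 libraries, and the added 1 weighs on Lif, with a fold of 1.74 and a share ratio of 5.56 against buffer, more than on Fos, with 1.76 and 2.03.

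**Figure D4:**
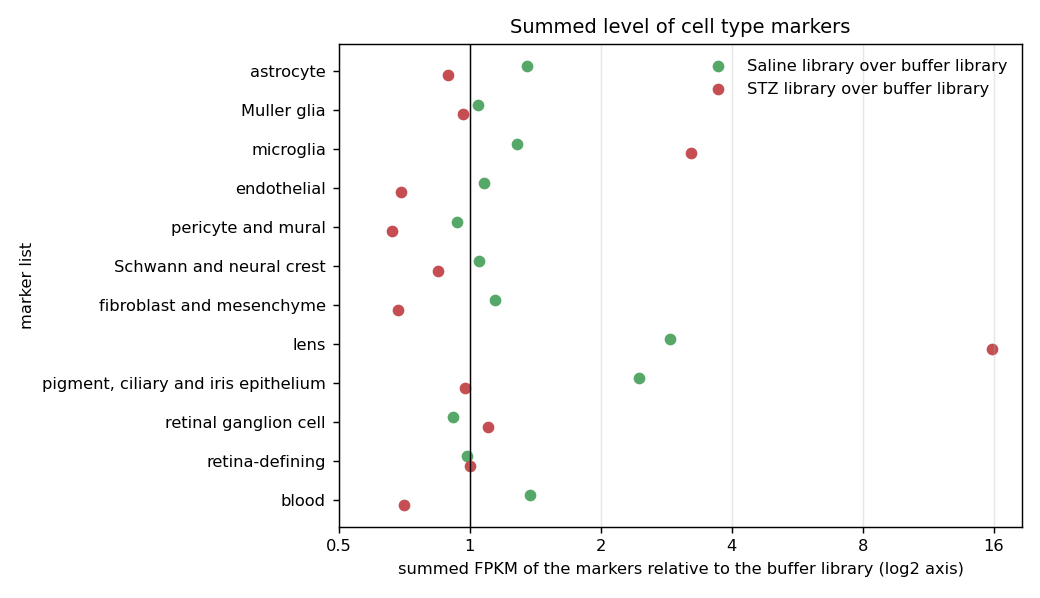
Summed FPKM of each of 12 marker lists (y axis) in the saline and STZ libraries relative to the buffer library (x axis, log2 scale), 1 library per point. Lens markers stand at 15.9 and microglia markers at 3.22 in STZ, and pigment, ciliary and iris epithelium markers at 2.45 in saline. The sum of the 12 retina-defining markers stays at 0.988 in saline and 1.00 in STZ, though 8 of them had their lowest share in STZ.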

How the data were processed

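Total RNA from dissected retinas was sequenced in 3 libraries (buffer, saline and STZ). Per the methods and the labels, the authors trimmed reads, mapped them with TopHat2 (genome rn6 in the submitters' processing notes), discarded reads with several locations and computed FPKM with a custom R script. The annotation is not given in the sources used here. The authors deposited FPKM, TPM and estimated counts per gene. The counts are partly fractional (12.9% of values in buffer), but all 10 genes have whole counts, and counts were rounded before any interval. The series table and the library tables hold equal values (largest difference 0). All 10 gene identifiers matched RefSeq GRCr8, used for names and promoter windows only.

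The members and lists were chosen with earlier results of these data known. Named genes were the 10, the pathway genes past a threshold in the same direction against both controls or between the controls, the most abundant gene of each pathway list, the partners of the 10 genes and the 2 genes nearest to each member past the threshold against both controls. Some genes that this rule names are not reported here. No group has replicates, so no model was fitted and no p-value computed. Intervals and floors (3 counts) cover counting error only, since PCR copies were not told apart by molecular identifiers. A gene at or under 3 counts in both libraries was given no share ratio. FPKM intervals are exact Poisson intervals. Alternatives were TPM, CPM from the counts, a pseudocount of 0.1, thresholds of 2 and 0.5, a mean of at least 10 reads (50 for medians), TMM factors of edgeR 4.0.16, size factors of DESeq2 1.42.0 (R 4.3.3), the counting interval and the mean of both controls. Python 3.11.15 with numpy 2.4.6, pandas 2.3.3, scipy 1.17.1 and matplotlib 3.10.9 was used, and the calculations were tested on simulated data.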

Additional observations from a re-analysis of the deposited data

How the results depend on the processing

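No paired analysis was possible because each condition has 1 library, and leaving out a replicate was impossible for the same reason. Among the 10 genes, TPM, CPM, the pseudocount, TMM and the size factors left the numbers past the thresholds as they were, with Lif higher against each control and Cntf lower against saline. Against the mean of both controls, 1 (Lif) was higher and 0 lower. With thresholds of 2 and 0.5, 0 genes remained past them in the comparisons of STZ. With the counting interval in place of the fold, 4 were higher and 3 lower in STZ against each control and 2 were higher in saline against buffer. The fold of Lif against buffer lay between 1.73 and 4.65, with the highest value at a pseudocount of 0.1, and that against saline between 1.76 and 5.10.

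Among the 109 pathway genes, a pseudocount of 0.1 gave 10 higher and 4 lower in STZ against buffer, 10 and 13 against saline, and 11 and 2 in saline against buffer. Thresholds of 2 and 0.5 left 1 higher (Egr1) and 0 lower in either STZ comparison and 0 higher between the controls. The counting interval gave 25 and 21, 22 and 29, and 22 and 9 in the same order. With TPM, 8 were lower in STZ against saline and 4 higher in saline against buffer, and with CPM 4 were higher between the controls. With CPM, the mean of both controls, or a mean of at least 10 reads, 0 were lower in STZ against buffer. Over all genes in STZ against buffer, 415 were higher and 191 lower, against 1432 and 831 with the pseudocount of 0.1 and 166 and 52 with thresholds of 2 and 0.5. The counting interval gave 4007 and 2851, and TPM 304 lower. In STZ against saline, 375 and 322 became 575 and 513 with TPM, 1265 and 1270 with the pseudocount, 130 and 85 with the other thresholds and 4075 and 3585 with the interval. In saline against buffer, 185 and 79 became 350 and 130, 1113 and 541, 72 and 28, and 2451 and 1807 in the same order. The median log2 fold of the neurotrophin list in STZ against buffer lay between -0.02 and 0.01 and changed sign. Among the 10 genes, Lif, Bdnf and Fgf2 had at most 50 reads in any library, which limits what these data can show of them.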

Other observations

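The genes Fgf11, Fgf12, Fgf13 and Fgf14, whose products stay inside the cell and act on sodium channels rather than on FGF receptors, were singled out after their values were seen. Fgf11 had 1727 reads in buffer, 1607 in saline and 2358 in STZ, with share ratios in STZ of 1.36 (1.28 to 1.45) against buffer and 1.46 (1.37 to 1.56) against saline. Fgf12 had ratios of 1.29 (1.12 to 1.47) and 1.14 (1.00 to 1.30). Fgf13 had 1.10 (1.00 to 1.21) and 1.02 (0.929 to 1.12), so it was the least different of the 4. Fgf14, whose counts are partly fractional, had 1.32 (1.16 to 1.51) and 1.42 (1.24 to 1.63). Of the 4, 0 passed the upper fold threshold.

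The deposited FPKM and counts imply a transcript length for each gene, the reads divided by the FPKM and by the library total. For Fgfr1 it was 2.89 kb in buffer, 2.92 kb in saline and 3.04 kb in STZ, a spread of 5.15%, and for Cntfr 1.47 kb in buffer and 1.49 kb in saline, with a spread over the 3 libraries of 4.51%. For Ntrk3 it was 3.38, 3.36 and 3.43 kb, a spread of 2.27%. The same length was used to within 0.877% for Ntrk2, 0.172% for Cntf, 0.140% for Ngfr and 0.0899% for Il6st. Of 12532 genes with at least 1 FPKM in every library and a mean of at least 10 reads, 19.8% differed by over 2%. Lif, under 1 FPKM in every library, was outside this set, with 2.45, 1.24 and 1.82 kb in buffer, saline and STZ. Its FPKM, and every fold, rank and ratio taken from them, rest on these unequal lengths. In STZ the folds of Fgfr1 and Cntfr from FPKM lie below their share ratios from reads, and no transcript-level values were used here.

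The lists not described above gave the following sums of FPKM in buffer, saline and STZ. Endothelial markers summed to 123, 133 and 85.2, with all 9 lowest in STZ. Most of these sums came from Kdr, with 105.92, 117.43 and 80.18 FPKM. The share ratios of the 9 in STZ against buffer ranged from 0.196 for Cldn5 to 0.757 for Kdr, so the sums mainly show Kdr. Fibroblast and mesenchyme markers summed to 9.28, 10.6 and 6.34, and blood markers to 175, 240 and 124. Of the 11 fibroblast and mesenchyme markers, 7 were lowest and 1 was highest in STZ. Pdgfra, which is also in the astrocyte list, had 4.65, 4.17 and 1.92 FPKM and weighed heavily on the fibroblast sums. Col1a2 went the other way, with 0, 59.48 and 104.09 reads.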
